A study of Homo sapiens with 9 samples.

Results

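The complement system was examined in HMC3 cells through 9 genes, chosen by name as its components and regulators: C3, C1S, C1R and CFB among the components, and CFI, SERPING1, CD46, CD55 and CD59 among the regulators. All 9 were found among the 61544 genes of the deposited table, and 7 of them passed the expression filter and were among the 14727 genes tested. CFB and CFI did not pass and are described by their counts alone.

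HMC3 is a human microglial line immortalized with the SV40 large T antigen, here of wild-type genotype, and RNA-seq was performed on 9 libraries of polyadenylated RNA, 3 per group. SLO cells received SBI-0206965 at 10 µM (which inhibits ULK1, a kinase that starts autophagy), O-151 at 1 µM (directed at the DNA glycosylase OGG1) and Lopinavir at 1 µM (which interferes with the maturation of Lamin A) for 6 days. SLO ½ cells received the same agents at 5, 0.5 and 0.5 µM for 6 days, and VEH cells the solvent DMSO alone. The compounds were only given together, so no value below can be assigned to 1 of them. All groups come from a single line, and the labels do not state that replicates came from separate cultures, in which case the p-values measure only the spread between these libraries.

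Complement is a cascade of plasma and cell surface proteins in which recognition of a target activates proteases that cleave C3 and then C5, tagging the target, attracting leukocytes and opening pores in its membrane. The classical route starts with the C1 complex, whose proteases C1r and C1s act in turn, and the alternative route is amplified by factor B. Host cells are shielded by membrane regulators such as CD46, CD55 and CD59 and by soluble ones such as C1 inhibitor and factor I, and in the brain microglia and astrocytes are known sources of several of these proteins.

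Reads assigned to genes ranged from 14834295 to 19674841 per library, so 3 counts corresponded to 0.157 to 0.199 CPM (counts scaled to library size with edgeR's TMM factors). Of 14 microglia markers, 8 had at most 3 counts in every library, including AIF1, PTPRC, SPI1, CX3CR1 and TMEM119, and P2RY12, GPR34 and TYROBP had none. These defining markers of microglia were thus at or near 0 in this line. A list of 21 interferon-stimulated gene names, of which 19 were tested, had a summed level between 51.8 and 90.4 CPM in VEH (highest in replicate 1), between 536 and 617 CPM in SLO ½ and between 179 and 231 CPM in SLO. These sums are set beside C3 and CD55, whose groups had the same order, and beside CD59, which was also highest in SLO ½.

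In brief, transcripts of C3, C1S, CD46 and CD55 rose in both treated groups, and CD59 rose in SLO ½ but was not called in SLO. SERPING1 was also higher in both, but it passed the expression filter only through the treated libraries, so its calls against VEH are no support. C1R did not pass the test in any of the 3 comparisons. C3 and CD59 were lower in SLO than in SLO ½, and SERPING1 and CD46 were higher. In alternative analyses these calls were kept in 18 of 19 for C3, 19 of 19 for CD59, 16 of 19 for CD46 and only 9 of 18 for SERPING1. A change was called at an adjusted p below 0.05 (edgeR quasi-likelihood test, Benjamini-Hochberg over all 14727 genes).

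In SLO against VEH, 5 of the 7 tested genes rose, none fell and 2 were not called (C1R and CD59), against a background in which 64.9% of all tested genes were called, 32.9% as higher and 32.1% as lower. In SLO ½ against VEH, 6 rose, none fell and 1 (C1R) was not called, where 52.0% of all tested genes were called, 26.7% as higher and 25.3% as lower. In SLO against SLO ½, 2 rose, 2 fell and 3 were not called (C1S, C1R and CD55), where the background was 41.1%, 20.8% higher and 20.3% lower. One of these genes, SERPING1, reached the filter's limit of 0.608 CPM only in treated libraries and therefore had to differ. Among the other 6, 4 rose in SLO and 5 in SLO ½. The median log2 fold change over the 7 genes was 0.58 in SLO, 0.71 in SLO ½ and -0.13 between the doses, beside 0.014, 0.015 and -0.0014 over all tested genes. Without SERPING1 the medians were 0.44, 0.56 and -0.26. The libraries of the groups compared did not overlap for 5 genes in SLO against VEH, 6 in SLO ½ against VEH and 5 in SLO against SLO ½, where the share of all tested genes without overlap was 66.7%, 58.3% and 51.0%. The 5 of 7 called in SLO against VEH and the 4 of 7 between the doses lie near these shares, so the counts alone are no result about complement genes, and the values of each gene follow. Both comparisons against VEH use the same 3 VEH libraries, so their values are given side by side and are not independent.

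**Figure D1:**
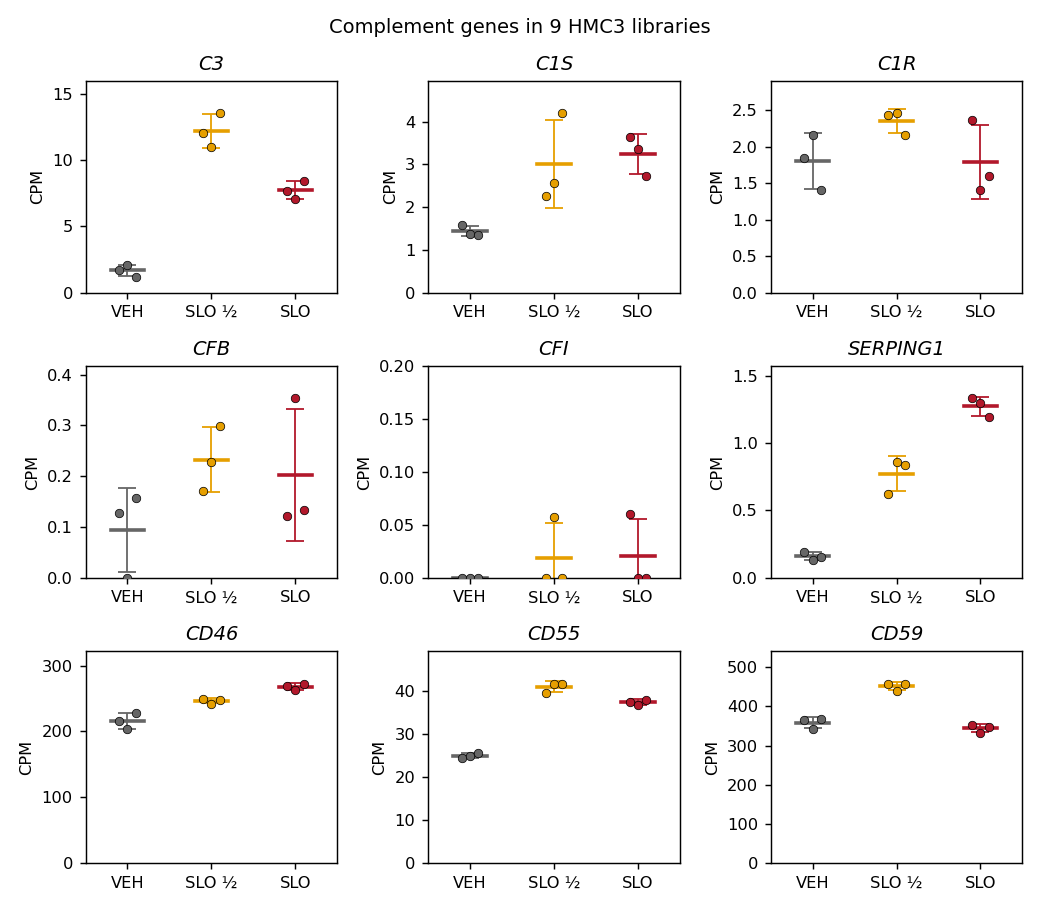
CPM of the 9 complement genes in each library of VEH, SLO ½ and SLO, with points for libraries, thick bars for the group mean and thin bars for ± 1 SD (n = 3). C3 is lowest in VEH and highest in SLO ½, SERPING1 and CD46 are highest in SLO, and CFB and CFI stay below 0.4 CPM in every library.

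C3 codes for the protein on which all activation routes converge. It measured 1.71, 2.10 and 1.20 CPM in the 3 VEH libraries. The SLO ½ libraries gave 12.0, 10.98 and 13.5 CPM. The SLO libraries gave 7.69, 7.06 and 8.44 CPM. The 3 groups do not overlap, and the order was VEH, SLO, SLO ½. Group means were 1.67 ± 0.451, 12.2 ± 1.29 and 7.73 ± 0.692 CPM for VEH, SLO ½ and SLO (SD, n = 3), from 82, 630 and 374 counts in all. The log2 fold change against VEH was 2.89 in SLO ½ (SE 0.158, adjusted p = 4.64e-15), a 7.40-fold rise with a 95% interval of 5.91 to 9.26. In SLO it was 2.23 (SE 0.173, adjusted p = 3.39e-12), a 4.69-fold rise with an interval of 3.67 to 6.00. By the size of its change, C3 stood above 99.5% of all tested genes in SLO ½ and above 97.9% in SLO. Compared directly, SLO was lower than SLO ½ by a factor of 0.634 (log2 fold change -0.66, SE 0.116, adjusted p = 3.57e-05). The interferon-stimulated genes had the same order of groups. Of 19 tested, 19 rose in SLO ½, 18 rose in SLO and 19 were lower in SLO than in SLO ½. Several, such as OASL, RSAD2 and XAF1 (0.191, 0.133 and 0.127 mean CPM), were under the filter's limit of 0.608 CPM in VEH. Such genes entered the tests only through treated libraries, so the counts of rises against VEH were partly fixed by the filter. The part of the interferon-stimulated genes in the C3 values was not tested. With 1 library left out at a time, the C3 log2 fold change against VEH ranged from 2.67 to 3.08 in SLO ½ and from 2.01 to 2.42 in SLO. RNA was measured in bulk, where fewer cells of a type and less RNA per cell cannot be told apart.

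CFB, the protease subunit of the alternative C3 convertase and the partner of C3 in that enzyme, was barely detected. Its counts were 2, 0 and 3 in VEH, 3, 4 and 5 in SLO ½ and 2, 6 and 2 in SLO. The groups overlap, and the summed counts of 5, 12 and 10 gave a ratio to VEH of 2.32 in SLO ½ (95% counting interval 0.762 to 8.42) and of 2.07 in SLO (0.643 to 7.70). A difference was not detectable at this depth. The 5′ part of the CFB model in the files (GRCh38 chr6:31945650-31952084) overlaps the end of the C2 model.

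C1S and C1R code for the proteases of the C1 complex, where C1r activates C1s and C1s cleaves C4 and C2. Their genes are neighbours on chromosome 12 in GRCh38, C1S at chr12:6988259-7071032 on the plus strand and C1R at chr12:7080214-7092540 on the minus strand, with 9181 bases between the gene models. C1S measured 1.59, 1.38 and 1.36 CPM in VEH, 2.27, 2.57 and 4.19 in SLO ½ and 3.63, 3.36 and 2.73 in SLO. Every treated library lay above every VEH library, while SLO and SLO ½ overlapped, and SLO ½ replicate 3 was the highest of all. The means were 1.44 ± 0.127, 3.01 ± 1.03 and 3.24 ± 0.464 CPM (SD, n = 3). C1S rose with a log2 fold change of 1.06 in SLO ½ (SE 0.235, adjusted p = 0.000404) and of 1.17 in SLO (SE 0.234, adjusted p = 7.22e-05). Between the doses the log2 difference was 0.12, with a 95% interval from -0.29 to 0.53 (adjusted p = 0.673).

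C1R measured 1.84, 2.17 and 1.41 CPM in VEH, 2.44, 2.46 and 2.16 in SLO ½ and 2.36, 1.41 and 1.60 in SLO. SLO ½ sat at the upper end, overlapping VEH by 1 library, and the SLO libraries spread over the range of both other groups. The log2 fold change against VEH was 0.40 in SLO ½ (95% interval -0.05 to 0.86, adjusted p = 0.131) and 0.0094 in SLO (-0.48 to 0.50, adjusted p = 0.975). Between the doses it was -0.39 (-0.85 to 0.06, adjusted p = 0.167). C1R had 24 to 43 counts per library, and its intervals still allow changes of up to 1.41-fold in SLO. The C1R model also shares 2954 bases with C1RL on the same strand, and a read on exons of both is counted for neither.

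The ratio of C1S to C1R was computed per library from the deposited TPM (a unit scaled for gene length and library size). It was 0.783, 0.578 and 0.875 in VEH, 0.845, 0.951 and 1.77 in SLO ½ and 1.40, 2.16 and 1.55 in SLO. All SLO ratios exceeded all VEH ratios, and SLO ½ overlapped both. The mean log2 ratio differed by 1.19 between SLO and VEH, with an exact two-sided permutation p of 0.1, the smallest that 3 against 3 libraries allow. For SLO ½ against VEH the difference was 0.61 (exact permutation p = 0.2).

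SERPING1 codes for C1 inhibitor, the serpin that inactivates C1r and C1s. It had 3, 2 and 3 counts in VEH, 11, 15 and 14 in SLO ½ and 22, 22 and 18 in SLO. The groups do not overlap and follow the dose, but VEH lies at the level of 3 counts per library. Scaled, these were 0.159 ± 0.0297, 0.774 ± 0.129 and 1.27 ± 0.0697 CPM (SD, n = 3). From the summed counts of 8, 40 and 62, the ratio to VEH was 4.84 in SLO ½ (95% counting interval 2.23 to 12.0) and 8.002 in SLO (3.82 to 19.4). The fitted log2 fold changes were 2.22 (SE 0.442, adjusted p = 0.000109) and 2.94 (SE 0.399, adjusted p = 2.11e-07). No VEH library reached the filter's limit of 0.608 CPM, so SERPING1 was tested only through the groups where it was high. These p-values are therefore no support for a rise. SLO exceeded SLO ½ by 0.72 (SE 0.279, adjusted p = 0.0390). That last call is not stable, since it was lost in 9 of 18 alternatives, among them DESeq2 (adjusted p = 0.191) and the omission of any 1 treated library (adjusted p 0.0536 to 0.147). The summed CPM of fibroblast and mural markers had the same order, between 2609 and 3059 in VEH, between 3199 and 3295 in SLO ½ and between 3782 and 3958 in SLO, and COL1A1 carried most of it. Of those 8 markers 5 were tested, and none of the 8 was at 0 in all libraries. In SLO 4 rose and 1 fell, and in SLO ½ 3 rose, 1 fell and 1 was not called. Of all tested genes 32.9% rose and 32.1% fell in SLO, and 26.7% rose and 25.3% fell in SLO ½. Only COL1A1 and ACTA2 of the 5 had means that followed the dose. THY1 was highest in SLO ½ (264, 413 and 344 mean CPM in VEH, SLO ½ and SLO). PDGFRB (91.3, 64.1 and 75.0) and COL1A2 (95.3, 89.1 and 113) were lowest in SLO ½. The summed CPM of 4 astrocyte markers followed the dose too (15.0 to 19.9, 28.3 to 32.1 and 35.3 to 37.6), mostly through SLC1A3, with AQP4 at 0 in every library. The other astrocyte marker that was tested, ALDH1L1, went the other way, lower in SLO than in VEH (log2 fold change -0.55, adjusted p = 0.0354) and not called in SLO ½ (-0.45, adjusted p = 0.0888). The part of these cell type markers in the SERPING1 values was not tested.

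CFI codes for factor I, the plasma protease that degrades C3b and C4b with the help of cofactors. It had 0 counts in all VEH libraries, and a single count in 1 library of SLO ½ and in 1 library of SLO. With 0 counts a level of up to 0.157 to 0.197 CPM remains possible in each VEH library, counting error only. The 5 hepatocyte markers, which mark the main source of plasma complement, summed to between 2.25 and 3.15 CPM in VEH, between 4.43 and 5.62 in SLO ½ and between 4.59 and 6.12 in SLO. Nearly all of it was SERPINA1, the only 1 of the 5 that was tested, and it rose in both treated groups.

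**Figure D2:**
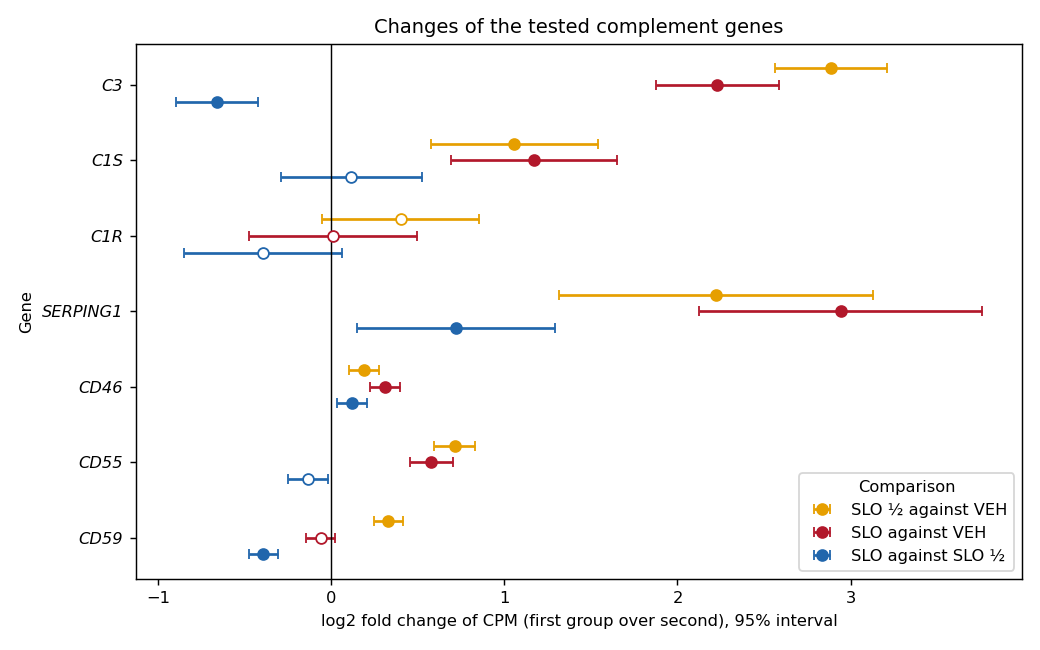
Log2 fold change of CPM (x axis) for the 7 tested complement genes (y axis) in the 3 comparisons, with 95% intervals from the edgeR fit. Filled points passed an adjusted p of 0.05 and open points did not. C3 and SERPING1 lie farthest to the right against VEH, and C3 and CD59 are filled on the left side in SLO against SLO ½.

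CD46, CD55 and CD59 code for regulators on the cell membrane, and they were the most abundant of the 9 genes. CD46, or membrane cofactor protein, assists factor I in degrading C3b and C4b. It measured 216, 204 and 228 CPM in VEH, 249.9, 242 and 248 in SLO ½ and 269, 263 and 273 in SLO. The groups do not overlap and follow the dose. The log2 fold change against VEH was 0.19 in SLO ½ (SE 0.0417, adjusted p = 0.000359) and 0.31 in SLO (SE 0.0417, adjusted p = 1.87e-07), that is 1.14-fold and 1.24-fold. SLO exceeded SLO ½ by 0.12 (SE 0.0414, adjusted p = 0.0201). Without SLO ½ replicate 2 or without SLO replicate 3 this last difference was no longer called (adjusted p = 0.0811 and 0.0810).

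CD55, or decay-accelerating factor, speeds the breakdown of C3 and C5 convertases. Its gene lies 365232 bases from that of CD46 in the cluster of complement regulators on chromosome 1. It measured 24.4, 24.9 and 25.7 CPM in VEH, 39.7, 41.8 and 41.8 in SLO ½ and 37.6, 36.7 and 38.0 in SLO. Every treated library was above every VEH library, and the SLO libraries were all below the SLO ½ libraries. CD55 rose with a log2 fold change of 0.71 in SLO ½ (SE 0.0586, adjusted p = 3.45e-11) and of 0.58 in SLO (SE 0.0597, adjusted p = 1.26e-09), or 1.64-fold and 1.49-fold. SLO against SLO ½ gave -0.13 (95% interval -0.25 to -0.02, adjusted p = 0.0546), just short of the threshold. It was called when only these groups were fitted (adjusted p = 0.0454) or without VEH replicate 1 (adjusted p = 0.0473). CD55 and the interferon-stimulated sum had the same order of groups, and the part of those genes in the CD55 values was not tested.

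CD59, or protectin, blocks assembly of the membrane attack complex. It measured 365, 343 and 368 CPM in VEH, 456, 440 and 458 in SLO ½ and 352, 333 and 348 in SLO. SLO ½ stood above both other groups, and SLO overlapped VEH. CD59 rose in SLO ½ with a log2 fold change of 0.33 (SE 0.0402, adjusted p = 6.27e-08), or 1.26-fold. SLO against VEH gave -0.06 (95% interval -0.14 to 0.02, adjusted p = 0.195), and 0.014 when libraries were scaled by their totals alone. SLO was lower than SLO ½ by a factor of 0.763 (log2 fold change -0.39, SE 0.0403, adjusted p = 5.97e-09). The interferon-stimulated sum was likewise highest in SLO ½, although it was higher in SLO than in VEH where CD59 was not, and its part in the CD59 values was not tested.

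Upstream sequence was available from RefSeq (GRCh38.p14) for 6 of the 9 genes, CFB, CFI, C1R, CD46, CD55 and CD59, and the missing entries were C3, C1S and SERPING1. The 250 bases before each start were searched on both strands for the core of the interferon-stimulated response element (GAAANNGAA, or TTCNNTTTC on the other strand), the STAT (GAS) element (TTCNNNGAA), the C/EBP element (TTGCNNAA, or TTNNGCAA) and the NF-kappaB consensus. Of 35116 windows of this length, 6.88% hold the first, 6.57% the second, 9.05% the C/EBP element and 9.96% the NF-kappaB consensus. Stretches are shown for the membrane regulators CD59 and CD55, and for CFB, whose window matched 3 of the 4 motifs. CD59 and CD55 both rose in SLO ½, and CD55 also rose in SLO. CD46, the other membrane regulator, rose in both treated groups as well and is not shown. Capitals mark the motif matches, and the strands are those of the genes.
CD59, chr11:33736480-33736729, minus strand: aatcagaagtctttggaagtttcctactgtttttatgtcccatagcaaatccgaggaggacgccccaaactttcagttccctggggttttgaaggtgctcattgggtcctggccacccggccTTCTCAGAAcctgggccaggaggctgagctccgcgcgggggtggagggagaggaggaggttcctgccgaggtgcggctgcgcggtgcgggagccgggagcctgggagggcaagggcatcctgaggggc
CD55, chr1:207321428-207321518, plus strand: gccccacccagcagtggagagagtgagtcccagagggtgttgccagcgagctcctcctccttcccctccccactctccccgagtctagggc
CFB, chr6:31945845-31945974, plus strand: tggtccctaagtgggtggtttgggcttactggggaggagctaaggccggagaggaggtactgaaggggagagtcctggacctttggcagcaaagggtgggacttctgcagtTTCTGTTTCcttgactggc
CFB, chr6:31945983-31946011, plus strand: GGGGCCCTCCcgcttggatgTTCCGGGAA
In the CD59 stretch the capitals are a GAS match, 128 to 120 bases before the start. In the longer CFB stretch they are an interferon-stimulated response element match on the other strand (139 to 131 bases before the start). In the shorter one they are an NF-kappaB match (112 to 103) followed by a GAS match (92 to 84). These starts are those of RefSeq. The deposited CFB model begins earlier, at base 31945650 of chromosome 6, so both CFB stretches lie inside it. The shorter one also lies past the first base annotated as exon. The windows of CD55, CD46 and CFI held none of the 4 motifs, those of C1R held C/EBP and GAS matches, and 1 further CD59 window held C/EBP matches. These matches describe letters, not occupied sites, and CFB, with the most matches, had at most 6 counts in any library.

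Compared on the length-corrected TPM scale, the 9 genes spanned several orders of magnitude. In VEH the order was CD59 (160 ± 5.80 TPM, SD, n = 3), CD46 (65.6 ± 3.74), CD55 (11.5 ± 0.351), C1R (1.46 ± 0.308), C1S (1.06 ± 0.0864), C3 (0.679 ± 0.184), SERPING1 (0.104 ± 0.0187), CFB (0.0939 ± 0.0828) and CFI (0). The ranges of C1R and C1S overlapped, as did those of SERPING1 and CFB and those of CFB and CFI. In SLO ½ C3 moved up to place 4 with 4.81 ± 0.572 TPM, ahead of C1S (2.16 ± 0.761) and C1R (1.85 ± 0.118), whose ranges overlapped. In SLO C3 was also in place 4 (3.13 ± 0.280 TPM), followed by C1S (2.37 ± 0.342), C1R (1.44 ± 0.408) and SERPING1 (0.825 ± 0.0457), and no neighbours overlapped from CD59 down to CFI. CD59, CD46 and CD55 kept the first 3 places in every group.

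The 3 membrane regulators made up between 98.4% and 98.8% of the summed TPM of the 9 genes in VEH, between 96.4% and 97.0% in SLO ½ and between 96.7% and 97.1% in SLO. The other 6 genes together gave between 2.90 and 3.72 TPM in VEH, between 8.76 and 10.97 in SLO ½ and between 7.60 and 8.72 in SLO. Both treated groups were above VEH in this sum, without overlap, and SLO lay just below SLO ½. Among the membrane regulators the TPM ratio of CD59 to CD55 was between 13.4 and 14.5 in VEH, between 10.2 and 11.2 in SLO ½ and between 8.79 and 9.10 in SLO, so it was ordered by dose without overlap.

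**Figure D3:**
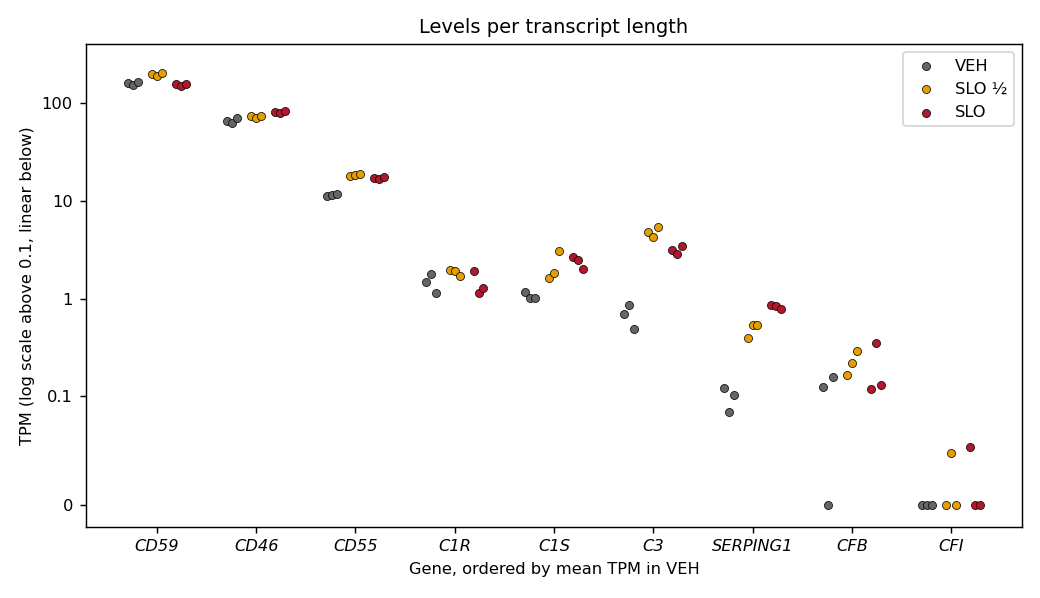
TPM of each complement gene (x axis, ordered by the VEH mean) in each library, on a log scale above 0.1 TPM and a linear scale below. The membrane regulators lie above 10 TPM in all 9 libraries, C3 crosses C1S and C1R in the treated groups, and CFI is at 0 in 7 libraries.

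The membrane regulators varied least between replicates. The biological coefficient of variation was 3.06% for CD55, 3.45% for CD46 and 3.46% for CD59, 4.86% for SERPING1, 5.75% for C3, 7.79% for C1R and 10.5% for C1S. The estimate for SERPING1 rests on few counts.

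For each tested gene, the gene with the most similar log2 CPM over the 9 libraries was looked up among 10942 genes of sufficient level. These were BIRC3 for C3 (Pearson r = 0.991), SHISA4 for C1S (0.974), GFER for C1R (0.917), CST3 for SERPING1 (0.996), PLEKHM2 for CD46 (0.993), ADAM19 for CD55 (0.996) and LAP3 for CD59 (0.986). The points share 3 group means, so these values mainly describe the order of the groups, and they were selected as the highest of many.

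Other genes of the pathway were taken from a list of 53, of which 13 had no count in any library, another 16 had at most 3 counts everywhere, 12 had more but did not pass the filter, and 12 were tested. In SLO against VEH 8 of the 12 rose, 1 fell and 3 were not called, with a median log2 fold change of 1.46. In SLO ½ against VEH 7 rose, 1 fell and 4 were not called (median 0.84). In SLO against SLO ½ 5 rose, 1 fell and 6 were not called, where 41.1% of all tested genes were called, 20.8% as higher and 20.3% as lower. The 6 of 12 called between the doses lie near that share. Against VEH, 64.9% of all tested genes were called in SLO and 52.0% in SLO ½. As 7 of the 12 reached the filter's limit only with the treated libraries, the rises are over-represented by that choice. Among the other 5, whose median log2 fold change was 0.32 in SLO and 0.58 in SLO ½, 3 rose and 1 fell against VEH in each treated group, beside backgrounds of 32.9% and 32.1% in SLO and of 26.7% and 25.3% in SLO ½. The genes named from this list were partners of an enzyme of the 9 genes or had the smallest p of their role against VEH, and the p-values of CLU, THBD and C1QBP were thus selected as the smallest among several.

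C1QA, C1QB and C1QC, the subunits of the recognition protein C1q to which C1r and C1s bind, had no count in any library. C1RL, a C1r-like protease, ranged over 6.16 to 8.57 CPM in VEH, 6.42 to 8.41 CPM in SLO ½ libraries and 8.41 to 9.36 CPM in SLO. It rose in SLO (log2 fold change 0.32, adjusted p = 0.0269), although SLO and VEH overlapped, and was not called in SLO ½ (0.10, adjusted p = 0.544). C2, a substrate of C1s and a subunit of the classical C3 convertase, was not called, with log2 fold changes of 0.37 and 0.43 in SLO ½ and SLO. C4A and C4B, near-identical genes for its partner C4, had at most 6 and 4 counts per library, and reads common to both could not be assigned to either.

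CFD, factor D of the alternative pathway, which cleaves factor B, measured 1.71, 1.84 and 1.57 CPM in VEH, 2.61, 2.46 and 2.58 in SLO ½ and 1.94, 2.06 and 2.33 in SLO. It rose in SLO ½ (log2 fold change 0.58, SE 0.197, adjusted p = 0.0140), and the SLO value was 0.31 (adjusted p = 0.196) with no overlap with VEH.

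C5, the protein cleaved after C3 to start the terminal pathway, measured 1.78, 1.84 and 2.35 CPM in VEH, 3.46, 3.43 and 2.99 in SLO ½ and 6.90, 8.01 and 7.38 in SLO. The groups do not overlap and follow the dose, unlike those of C3. The log2 fold change was 0.71 in SLO ½ (SE 0.182, adjusted p = 0.00159), 1.88 in SLO (SE 0.157, adjusted p = 1.56e-11) and 1.17 between the doses (SE 0.141, adjusted p = 9.85e-08).

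CLU codes for clusterin, a soluble protein that binds the terminal complex, among other roles. It measured 20.3, 18.8 and 19.5 CPM in VEH, 44.9, 43.7 and 46.1 in SLO ½ and 130, 112 and 114 in SLO. The groups do not overlap and follow the dose, and CLU rose by 1.20 on the log2 scale in SLO ½ (SE 0.0676, adjusted p = 8.65e-15) and by 2.60 in SLO (SE 0.0616, adjusted p = 4.82e-24). Outside the rule for naming genes and chosen after their values were seen, 2 further soluble regulators are VTN (vitronectin), at 0.604, 2.36 and 5.09 mean CPM in VEH, SLO ½ and SLO, and C4BPB (a chain of C4b-binding protein), at 0.398, 1.95 and 1.51. VTN was higher than in VEH by 1.96 and 3.07 on the log2 scale in SLO ½ and SLO, and C4BPB by 2.27 and 1.90. Both had VEH levels under the filter's limit in most libraries and entered the tests through the treated ones. No p-value is therefore given for them.

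THBD, thrombomodulin, a membrane protein that also dampens complement, ranged over 0.571 to 0.888 CPM in VEH, 1.25 to 2.16 CPM in SLO ½ libraries and 2.24 to 3.21 CPM in SLO, without overlap. It rose by 1.25 in SLO ½ and by 1.91 in SLO on the log2 scale, but reached the filter's limit in only 2 of 3 VEH libraries and so entered the tests through the treated ones. Among receptors, C5AR1, the receptor of C5a and likewise chosen after its values were seen, rose from 0.405 mean CPM in VEH to 0.887 and 1.69, and no VEH library reached the filter's limit, so that it passed only through the groups in which it was high. C1QBP, a mostly mitochondrial protein that can bind C1q, was the only tested gene of this list called as lower than VEH, from between 149 and 167 CPM in VEH to between 131 and 141 in SLO ½ and between 97.8 and 106 in SLO. Its log2 fold change was -0.22 in SLO ½ (SE 0.0462, adjusted p = 0.000248) and -0.65 in SLO (SE 0.0475, adjusted p = 8.49e-13).

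**Figure D4:**
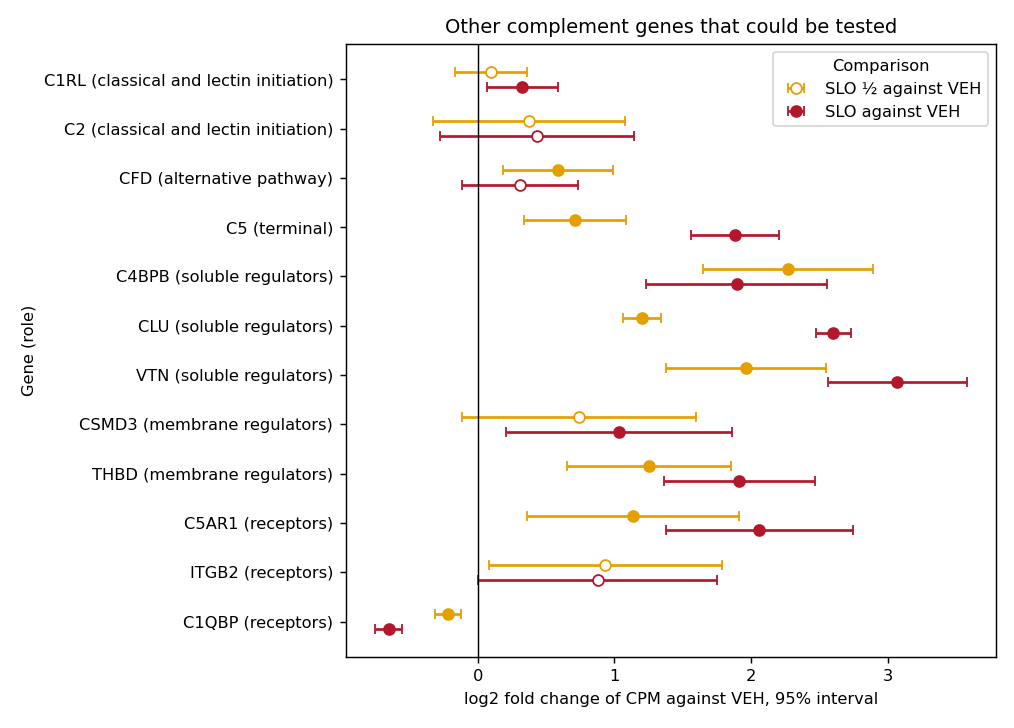
Log2 fold change of CPM against VEH (x axis, with 95% intervals) for the 12 other complement genes that could be tested (y axis, with their role), in SLO ½ and SLO. Filled points passed an adjusted p of 0.05. CLU, VTN, C5, THBD and C5AR1 lie farther right in SLO than in SLO ½, and C1QBP lies left of 0 in both.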

How the data were processed

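RNA of HMC3 cells was sequenced in 9 libraries. The authors used Trimmomatic 0.38 for trimming and STAR 2.7.1a for alignment to GRCh38, and deposited whole-number counts per gene. They also deposited TPM, whose gene lengths are not described. The annotation release is not given in the sources used here. Summary lines without a gene (unmapped, multimapping, outside genes, ambiguous) were left out of library sizes, at 0.883% to 0.984%, 7.16% to 8.52%, 5.54% to 8.38% and 3.03% to 3.26% of reads.

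The counts were tested with edgeR 4.0.16 in R 4.3.3 (filterByExpr, TMM factors of 0.968 to 1.035, quasi-likelihood test, 3 groups, no covariate, Benjamini-Hochberg over all genes tested). The script was tested on simulated data. Within-group pairs of libraries differed by more than sampling noise (chi-square per degree of freedom 1.77 to 4.06). The authors used DESeq2, which was run as an alternative (version 1.42.0), as were limma 3.58.1 on log2(TPM + 1) or log2(TPM + 0.1), other scalings and filters, the replicate block and the omission of each library. Counting intervals cover counting error only. The genes and lists were chosen with earlier results of these data known. Of the wider list, the gene with the smallest p per role in either comparison with VEH and the partners of listed enzymes were named with values, except for items that are not reported here.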

Additional observations from a re-analysis of the deposited data

Results flagged for a closer look

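Of the complement genes, 4 differed between the doses by a direct test of SLO against SLO ½ (edgeR quasi-likelihood, Benjamini-Hochberg adjusted). C3 had a log2 fold change of -0.66 (adjusted p = 3.57e-05) and CD59 of -0.39 (adjusted p = 5.97e-09), and both were lower in SLO in 3 of 3 libraries. SERPING1 had 0.72 (adjusted p = 0.0390) and CD46 0.12 (adjusted p = 0.0201), and both were higher in SLO in 3 of 3 libraries, but the SERPING1 call was lost in 9 of 18 alternatives and the CD46 call in 3 of 19. At this call 41.1% of all tested genes differed between the doses. Groups of 3 libraries are too small for a test of outlying libraries.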

How the results depend on the processing

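The members called ranged over alternatives from 4 to 5 in SLO against VEH and from 5 to 6 in SLO ½ against VEH. For SLO against SLO ½ the count was 4, but 1 with limma on unfiltered log2(TPM + 1), and 2 to 5 with 1 library left out (2 without SLO ½ replicate 2 and without SLO replicate 3). With at least 10 counts required in every library, only 5 genes of the wider list were tested, and 4, 4 and 3 were called in SLO against VEH, SLO ½ against VEH and SLO against SLO ½. SERPING1 did not meet this filter and has no value there. With 1 library left out, the list gave 7 to 9, 6 to 8 and 5 to 6. Of 396 values for single genes, 369 kept direction and call, 14 lost the call, 3 gained it and 10 changed sign. The sign changes were all in values that were not called. C1R in SLO against VEH was -0.0098 without a filter, -0.0076 with the replicate block, -0.0036 in DESeq2, -0.017 in limma on log2(TPM + 1) with or without a filter, -0.031 with a pseudocount of 0.1, and -0.25 to 0.16 with 1 library left out. CD59 in SLO against VEH was 0.014 under scaling by totals, and C1S in SLO against SLO ½ was -0.051 to 0.43 with 1 library left out. C1R in SLO against SLO ½ was called without SLO replicate 1 (-0.65, adjusted p = 0.0408). With limma on unfiltered TPM, calls were lost for C3 (adjusted p = 0.0714) and CD46 (adjusted p = 0.0537) in SLO against SLO ½ and for C1S in SLO ½ against VEH (adjusted p = 0.0752). On that scale of log2(TPM + 1) changes of low genes are understated, and the cause of the lost calls was not tested.

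Replicate numbers are shared by the groups, and deviations of same-numbered libraries correlated at 0.00277 to 0.0873. Differently numbered libraries correlated at -0.0621 to 0.0370. In SLO ½ against VEH, SLO against VEH and SLO against SLO ½, 5, 4 and 2 of 6 libraries were closest to their own number. The same-numbered values were all positive but small, so a weak pairing remains possible. The numbers were not taken as pairs in the main test. With the replicate block the members called were 5, 6 and 4 in SLO against VEH, SLO ½ against VEH and SLO against SLO ½, and the wider list gave 9, 8 and 6. These counts equal those without the block, and no single member's call changed.

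Depth limits CFB, CFI and SERPING1, whose VEH libraries held at most 3 counts each.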
